A study of Mus musculus with 8 samples.

Results

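The genes described here are 10 pericentral Wnt targets of the mouse liver, Glul, Axin2, Lgr5, Oat, Rhbg, Slc1a2, Rnf43, Znrf3, Lect2 and Tbx3, chosen by name as genes that β-catenin drives in hepatocytes around the central vein. They are 10 of the 49585 genes in the deposited count table, and all 10 were among the 16496 genes with enough counts to be tested. RNA-seq had been performed on the livers of 8 male mice that ate a high-fat, choline-deficient diet (HFCD) for 3 months from 21 days of age. The 3 LP245/+ livers carried Alb-CreTG and 1 Trp53wm-R245W allele, a conditional allele that gives the R245W mutant only in cells where Cre has acted. The 2 LPfl/+ livers carried Alb-CreTG and 1 floxed allele, Trp53fl/+, which Cre deletes. The 3 LP+/+ livers were labelled Alb-Cre0 and so served as p53 wild-type controls, with Trp53fl/+ unrecombined in replicates 1 and 2 and Trp53wm-R245W/+ unrecombined in replicate 3. The paper describes its LP+/+ cohort as Alb-Cre carriers, though its methods also allow Cre-negative littermates as controls, and the labels were followed here. In every comparison with LP+/+, the Trp53 change and the presence of Cre therefore cannot be told apart. The albumin promoter limits recombination to hepatocytes and cholangiocytes, so endothelial, Kupffer, stellate and immune cells kept wild-type p53 in every liver. All groups shared the diet, and no liver on a control diet was analysed here.

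The hepatocytes of a liver lobule differ along the path of the blood from the portal to the central vein. Endothelial cells of the central vein release Wnt ligands and R-spondin 3, and in the hepatocytes next to them β-catenin escapes its degradation complex and, with TCF/LEF factors, switches on the pericentral program. That program includes glutamine synthesis and the uptake of glutamate and ammonium, together with feedback genes that raise or lower the response of the cell to Wnt. Glul and Axin2 are the usual readouts of the pathway in liver.

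Totals ranged from 26304526 to 31370714 counts per liver, and a floor of 3 counts was 1.14e-05% of the smallest library. Cdkn1a, the p53 target that encodes p21, checked the labels: its normalized read count was 138 to 188 in LP+/+, 74.98 and 99.97 in LPfl/+ and 14.5 to 27.5 in LP245/+ livers, and in LP245/+ against LP+/+ it fell by 2.91 on the log2 scale (edgeR adjusted p = 0.0155). Trp53 itself had 202 to 258 in LP+/+, 127 and 178 in LPfl/+ and 193 to 316 in LP245/+ livers, a log2 fold change of -0.58 in LPfl/+ against LP+/+ (edgeR adjusted p = 0.718). The 6 hepatocyte markers found in the table, albumin among them, were detected in every liver. The library numbers in the labels fall into separate series. The first holds the 3 LP245/+ livers and LP+/+ replicates 2 and 3, and the second holds both LPfl/+ livers and LP+/+ replicate 1, and neither contains LPfl/+ together with LP245/+. Those genotypes are linked across the series only through the LP+/+ livers, of which the second series holds 1.

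Promoter windows are shown for the 4 members with an unadjusted p under 0.05 between LPfl/+ and LP+/+ livers, because the members share a regulator. The windows run from 250 bases before to 50 bases after the start site given by RefSeq on GRCm38.p6. Capitals mark a TCF/LEF-type heptamer, searched on both strands for the words CTTTGAA and then CTTTGAT, and likewise for CTTTGTA and then for CTTTGTT, and the rest is in lower case.
Glul (chr1:153899679-153899978, plus strand): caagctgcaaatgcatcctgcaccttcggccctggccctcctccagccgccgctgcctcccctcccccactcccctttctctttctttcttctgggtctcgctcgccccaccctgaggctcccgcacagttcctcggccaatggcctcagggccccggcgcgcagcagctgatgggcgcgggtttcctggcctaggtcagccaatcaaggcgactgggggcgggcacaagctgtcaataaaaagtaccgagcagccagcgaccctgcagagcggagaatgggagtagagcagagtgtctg
Oat (chr7:132576349-132576648, minus strand): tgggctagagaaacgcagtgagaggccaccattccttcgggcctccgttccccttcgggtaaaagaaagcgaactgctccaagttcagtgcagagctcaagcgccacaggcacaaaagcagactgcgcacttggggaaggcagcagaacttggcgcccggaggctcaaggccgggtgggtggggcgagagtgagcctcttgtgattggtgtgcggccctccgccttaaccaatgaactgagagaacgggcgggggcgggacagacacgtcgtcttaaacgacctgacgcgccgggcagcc
Slc1a2 (chr2:102706188-102706487, plus strand): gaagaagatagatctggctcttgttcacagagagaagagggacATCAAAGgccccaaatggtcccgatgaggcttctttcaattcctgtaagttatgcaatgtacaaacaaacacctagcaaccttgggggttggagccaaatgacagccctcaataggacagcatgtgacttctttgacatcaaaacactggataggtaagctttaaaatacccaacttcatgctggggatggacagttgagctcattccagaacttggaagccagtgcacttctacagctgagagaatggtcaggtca
Lect2 (chr13:56548489-56548788, minus strand): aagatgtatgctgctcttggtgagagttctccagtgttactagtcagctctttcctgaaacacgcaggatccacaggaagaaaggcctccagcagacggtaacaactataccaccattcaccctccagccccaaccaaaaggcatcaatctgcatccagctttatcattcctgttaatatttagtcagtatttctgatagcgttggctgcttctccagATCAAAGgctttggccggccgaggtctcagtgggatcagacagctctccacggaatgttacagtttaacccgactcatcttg
The Slc1a2 and Lect2 windows each hold 1 match, ATCAAAG as read, which is CTTTGAT on the other strand. It starts 207 bases before the start site of Slc1a2 and 32 bases before that of Lect2. The RefSeq start of Slc1a2 lies 47779 bases downstream of the start of the gene in GENCODE M21, so this window is that of an internal start. Windows were at hand for 6 of the 10 members, 7 windows in all because Rnf43 has more than 1, and 2 of the 7 hold a match, beside 16.9% of all 32851 mouse windows of the same length. No match means only that these letters are not in the window. No promoter window was used for Lgr5, Rhbg, Znrf3 or Tbx3.

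Levels of the 10 genes were set in order by TPM (the share of transcripts, from counts per exon length scaled to a fixed total), the scale used for comparisons between genes. Glul stood highest, with a median of 746 TPM over the 8 livers and a range from 543 to 887. Oat followed with a median of 583 TPM (366 to 927), and Lect2 with 353 TPM (284 to 489). The ranges of these 3 genes overlap their neighbours'. Slc1a2 came next at 30.3 TPM (22.8 to 35.4), below every value of Lect2, and Rnf43 stood at 8.45 TPM (6.15 to 9.9), below every value of Slc1a2. Tbx3 followed with 5.29 TPM (2.85 to 5.97), Znrf3 with 3.33 TPM (3.1 to 4.22) and Axin2 with 2.8 TPM (1.96 to 4.5). Rhbg, with 1.36 TPM (0.503 to 2.06), and Lgr5, with 1.34 TPM (0.957 to 2.49), were lowest, and the ranges from Tbx3 down overlap those of their neighbours.

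No member passed the test in any comparison. In LPfl/+ against LP+/+ livers, 9 of the 10 members were nominally lower, and 4 of them, Glul, Oat, Slc1a2 and Lect2, had an unadjusted p under 0.05 in the edgeR quasi-likelihood test. In LP245/+ against LP+/+ livers none had, and Glul and Tbx3 lay at the control level. Whole liver was sequenced, so fewer pericentral cells and less RNA in each cannot be told apart. The labels name separate animals by title only, and p-values measure the spread between these samples.

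**Figure D1:**
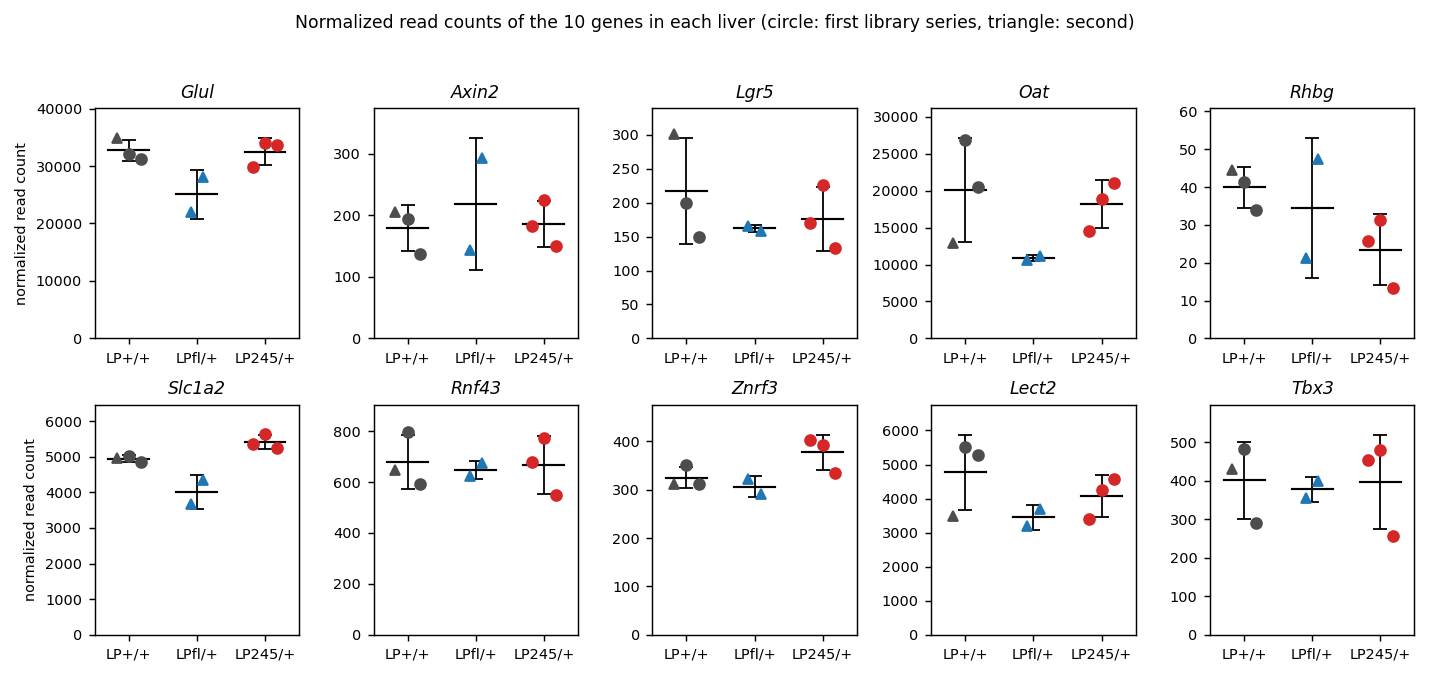
Normalized read count (y axis, linear from 0) of the 10 genes in each liver by genotype (x axis). Points are livers, circles for the first and triangles for the second library series, with the mean as a horizontal bar and the SD as a vertical one (n = 3, 2 and 3); both LPfl/+ livers sit below all other livers for Glul, Oat and Slc1a2.

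Glul, which encodes glutamine synthetase and joins ammonia to glutamate in the last hepatocyte layers before the central vein (ENSMUSG00000026473.15, chr1:153899944-153909723, plus strand), had normalized read counts of 34807, 32184 and 31283 in the LP+/+ livers. The LPfl/+ livers held 22072 and 28133, and the LP245/+ livers 29790, 33988 and 33685. Both LPfl/+ livers lay below every other liver, and the LP+/+ and LP245/+ livers overlapped. Their mean was 25103 ± 4285 (SD, n = 2) in LPfl/+ against 32758 ± 1831 (SD, n = 3) in LP+/+, or 23.4% lower. The log2 fold change was -0.38 (SE 0.144), with an unadjusted p of 0.0267 and an adjusted p of 0.704 (edgeR). In LP245/+ the log2 fold change against LP+/+ was -0.00 (95% interval -0.29 to 0.28; edgeR adjusted p = 1.0).

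Slc1a2, the glutamate transporter GLT-1 that brings the substrate of glutamine synthetase into the cell (ENSMUSG00000005089.15, chr2:102658659-102790784, plus strand), had normalized read counts of 4965, 5029 and 4848 in LP+/+ livers. LPfl/+ livers held 3665 and 4342, and LP245/+ livers 5362, 5639 and 5241. The genotypes did not overlap in any of the 3 comparisons: LPfl/+ livers were lowest, LP+/+ livers lay between, and LP245/+ livers were highest. The log2 fold change was -0.30 (SE 0.116) in LPfl/+ against LP+/+, with an unadjusted p of 0.0295 and an adjusted p of 0.704 (edgeR). It was 0.14 (SE 0.103; edgeR adjusted p = 0.851) in LP245/+ against LP+/+. Between LP245/+ and LPfl/+ it was 0.44 (SE 0.117; unadjusted p = 0.00399, adjusted p = 0.376, edgeR), the smallest p of any member in any comparison.

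Oat, ornithine aminotransferase, which passes carbon from ornithine toward glutamate (ENSMUSG00000030934.9, chr7:132557478-132576398, minus strand, with Fgfr2 annotated across it on the same strand), varied most among the abundant members. Its normalized read counts were 12886, 26887 and 20452 in the LP+/+ livers, 10557 and 11117 in the LPfl/+ livers and 14593, 18899 and 21043 in the LP245/+ livers. Both LPfl/+ livers were below all others, but LP+/+ replicate 1, the control of the same library series, was the next lowest. The means were 20075 ± 7008 (SD, n = 3) for LP+/+ and 10837 ± 396 (SD, n = 2) for LPfl/+, a log2 fold change of -0.88 (SE 0.273; unadjusted p = 0.00943, adjusted p = 0.697, edgeR). Without LP+/+ replicate 1 it was -1.12, and its edgeR adjusted p was then 0.0451, the 1 setting in which a member passed. That setting removes the only control of the second series, so genotype and series cannot be told apart in it. With the series as a covariate the log2 fold change was -0.24 (edgeR adjusted p = 0.991), and without LP+/+ replicate 2 it was -0.63 (edgeR adjusted p = 0.99). In LP245/+ against LP+/+ the log2 fold change was -0.13 (95% interval -0.66 to 0.40; edgeR adjusted p = 0.951).

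Rhbg, which encodes an ammonium transporter of the pericentral membrane (ENSMUSG00000104445.1, chr3:88242874-88254709, minus strand), was the member with the fewest reads, from 13 to 47 counts. Its normalized read counts were 44.4, 41.3 and 33.9 in the LP+/+ livers, 21.3 and 47.5 in the LPfl/+ livers and 25.8, 31.3 and 13.2 in the LP245/+ livers. All LP245/+ livers were below all LP+/+ livers, whereas the LPfl/+ livers held 1 value below and 1 above the controls. The LP245/+ mean was 41.2% lower than that of LP+/+, with a log2 fold change of -0.75 (95% interval -1.60 to 0.11; unadjusted p = 0.0793, adjusted p = 0.831, edgeR).

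Lect2, a protein that hepatocytes secrete (ENSMUSG00000021539.8, chr13:56542464-56548502, minus strand), had normalized read counts of 3501, 5521 and 5289 in the LP+/+ livers, 3191 and 3705 in the LPfl/+ livers and 3398, 4251 and 4580 in the LP245/+ livers. LP+/+ replicate 1 lay between the LPfl/+ livers, so the genotypes overlapped. The log2 fold change was -0.46 (SE 0.205; unadjusted p = 0.0497, adjusted p = 0.724, edgeR) in LPfl/+ and -0.22 (SE 0.181; edgeR adjusted p = 0.879) in LP245/+. With the library series as a covariate it was -0.01 in LPfl/+ and -0.40 in LP245/+ (unadjusted p = 0.0185, adjusted p = 0.715 for LP245/+, edgeR).

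Axin2, a scaffold of the β-catenin degradation complex and a feedback inhibitor of the pathway (ENSMUSG00000000142.15, chr11:108920349-108950783, plus strand), did not follow Glul. Its normalized read counts were 206, 194 and 136 in the LP+/+ livers, 143 and 294 in the LPfl/+ livers and 183, 224 and 151 in the LP245/+ livers. The highest and the second lowest of the 8 values came from the 2 LPfl/+ livers, and all genotypes overlapped. It was the 1 member nominally higher in LPfl/+, with a log2 fold change of 0.30 (95% interval -0.39 to 0.98; edgeR adjusted p = 0.859).

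Lgr5, the R-spondin receptor that raises the response to Wnt (ENSMUSG00000020140.15, chr10:115450311-115587780, minus strand), had normalized read counts of 301, 199.8 and 149 in the LP+/+ livers, 166 and 159 in the LPfl/+ livers and 169, 226 and 133 in the LP245/+ livers. The high value of LP+/+ replicate 1 set the control mean, and both other genotypes overlapped the controls. The log2 fold change was -0.41 (95% interval -1.09 to 0.27; edgeR adjusted p = 0.813) in LPfl/+ and -0.28 (95% interval -0.88 to 0.32; edgeR adjusted p = 0.886) in LP245/+.

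Rnf43 and Znrf3 encode the paired ubiquitin ligases that clear Wnt receptors from the membrane and are held back by R-spondins. Rnf43 (ENSMUSG00000034177.15, chr11:87662722-87735539, plus strand) had normalized read counts of 647, 798 and 594 in the LP+/+ livers, 622 and 674 in the LPfl/+ livers and 679, 774 and 548 in the LP245/+ livers. All genotypes overlapped, with log2 fold changes of -0.06 (95% interval -0.43 to 0.31) in LPfl/+ and -0.02 (95% interval -0.35 to 0.32) in LP245/+. Znrf3 (ENSMUSG00000041961.14, chr11:5276324-5444847, minus strand) had 311, 351 and 312 in the LP+/+ livers, 321 and 291 in the LPfl/+ livers and 403, 393 and 335 in the LP245/+ livers. All LP245/+ livers were above both LPfl/+ livers, with a log2 fold change of 0.30 (SE 0.133; unadjusted p = 0.0466, adjusted p = 0.579, edgeR), but LP245/+ overlapped LP+/+ (0.23, SE 0.118; edgeR adjusted p = 0.831).

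Tbx3, a T-box transcription factor of pericentral hepatocytes (ENSMUSG00000018604.18, chr5:119670669-119684724, plus strand), had normalized read counts of 429.9, 482 and 289.9 in the LP+/+ livers, 355 and 399.9 in the LPfl/+ livers and 455, 479 and 257 in the LP245/+ livers. The spread within a genotype exceeded any difference between genotypes, and the log2 fold changes were -0.08 (95% interval -0.69 to 0.54) in LPfl/+ and -0.00 (95% interval -0.55 to 0.55) in LP245/+.

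**Figure D2:**
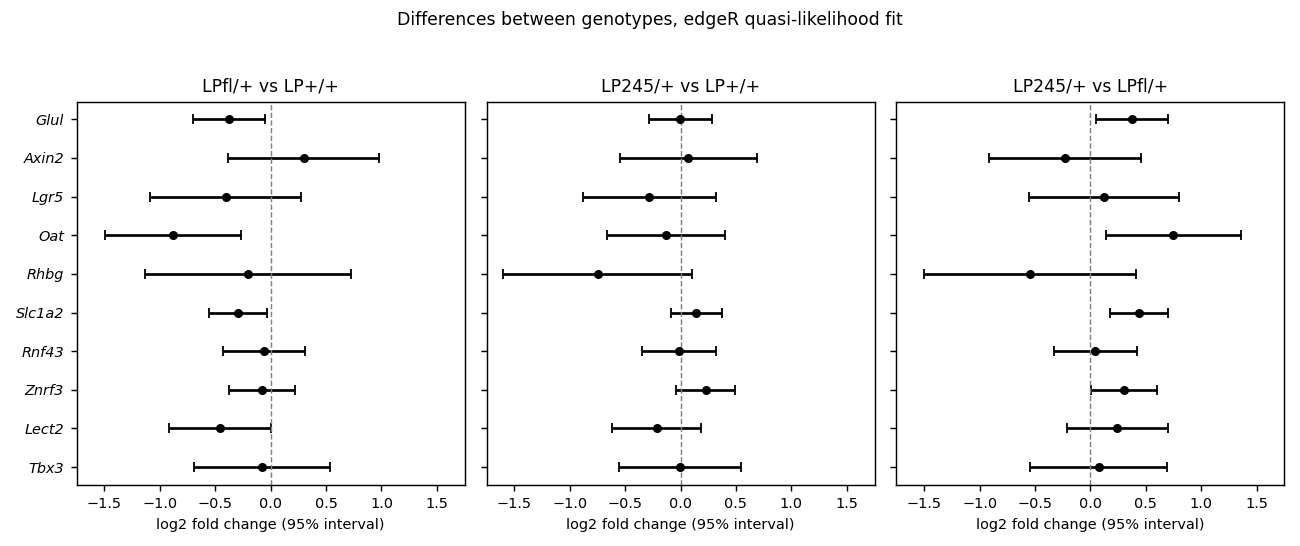
Log2 fold change (x axis) of the 10 genes (y axis) in the 3 comparisons, with points for the edgeR estimate and lines for its 95% interval. In LPfl/+ against LP+/+ the intervals of Glul, Oat, Slc1a2 and Lect2 lie below 0, and in LP245/+ against LP+/+ every interval takes in 0.

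Counted over the members, LPfl/+ against LP+/+ livers gave 0 of 10 at an adjusted p of at most 0.05 and a log2 fold change of at least 1 either way (background 0.0% of the 16496 genes tested, edgeR). DESeq2 also gave 0, beside 9 of the 30212 genes it tested. At an unadjusted p under 0.05 there were 4 of 10 lower, where 2.67% of all genes tested were lower at that p. The 3 members Glul, Oat and Slc1a2 had both LPfl/+ livers below all LP+/+ livers, which 13.2% of all genes did. Of the members 9 of 10 had a log2 fold change below 0, beside 50.2% of all genes, and the median was -0.25 for the members and -0.00 for all genes. Leaving out either LPfl/+ liver leaves 1, which is then assumed to vary like the other genotypes. Without LPfl/+ replicate 1, Glul was at -0.22, Oat at -0.86, Slc1a2 at -0.19, Lect2 at -0.37 and Axin2 at 0.715. Without LP+/+ replicate 2, the members at an unadjusted p under 0.05 were Glul and Oat (2 of 10, beside 704 of 16356 genes in either direction). With the library series as a covariate they were Glul, at -0.46, and Lgr5, at -0.88 (edgeR adjusted p = 0.887 and 0.813), beside 886 of 16496 genes. Without LP+/+ replicate 1 Lgr5 was at -0.09. The median of the members was -0.11 without LP+/+ replicate 1 and -0.41 without LPfl/+ replicate 2. The members were chosen with earlier results of these livers known, and these counts carry no test of their own.

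In LP245/+ against LP+/+ livers 0 of 10 members passed (0.00606% of all genes, which is Cdkn1a alone, by edgeR), and 0 passed by DESeq2 (beside 10 of 30212 genes). At an unadjusted p under 0.05 there were also 0, beside 5.93% of all genes. Rhbg, lower, and Slc1a2, higher, had no overlap between the genotypes, 2 of 10 members beside 11.8% of all genes. The log2 fold change was below 0 for 7 of 10 members and for 49.4% of all genes, with a median of -0.01 for the members and 0.00 for all genes. The 95% intervals of Rhbg and Lgr5 reach -1.60 and -0.88, while that of Slc1a2 runs from -0.09 to 0.37.

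In LP245/+ against LPfl/+ livers 0 of 10 members passed the edgeR test (0.0% of all genes) and 0 passed by DESeq2 (beside 56 of 30212 genes). At an unadjusted p under 0.05, Glul, Oat, Slc1a2 and Znrf3 were higher in LP245/+, 4 of 10 beside 4.07% of all genes, and the same 4 had no overlap between the genotypes, beside 12.1% of all genes. Without LP245/+ replicate 2 Slc1a2 alone was at that p (1 of 10, beside 1208 of 16399 genes in either direction). Without LP245/+ replicate 3 those at that p were Slc1a2 and Znrf3 (beside 1769 of 16363 genes). Without LPfl/+ replicate 1, Axin2 was at -0.66, Rhbg at -1.01, Glul at 0.21 and Slc1a2 at 0.32. Without LPfl/+ replicate 2, Glul was at 0.56 and Slc1a2 at 0.57. The log2 fold change was 0.37 (SE 0.144; edgeR adjusted p = 0.532) for Glul and 0.75 (SE 0.272; edgeR adjusted p = 0.508) for Oat. With the library series as a covariate, Oat turned to -0.13 (edgeR adjusted p = 0.995) and Lect2, at 0.24 without it, to -0.38 (edgeR adjusted p = 0.995). The members at an unadjusted p under 0.05 were then Lgr5, at 0.92, and Slc1a2, at 0.45 (edgeR adjusted p = 0.901 and 0.939), beside 870 of 16496 genes. Glul was then at 0.51 (edgeR adjusted p = 0.972). Without the covariate Lgr5 was at 0.12, and the log2 fold change was below 0 for 2 of 10 members, Axin2 and Rhbg, and for 49.2% of all genes. This comparison shares its LPfl/+ livers with the first, and its genotypes come from different library series.

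The library series moved with some of these values and not with others. For Oat, all 3 livers of the second series lay below all 5 of the first, the highest at 12886 and the lowest at 14593 normalized counts, an arrangement seen in 4.49% of all genes and in no other member. Between the control livers alone, the second series was lower than the first by 0.88 on the log2 scale for Oat and by 0.63 for Lect2, beside -0.88 and -0.46 between all LPfl/+ and LP+/+ livers. Within the second series, the LPfl/+ livers differed from LP+/+ replicate 1 by -0.25 for Oat and -0.02 for Lect2. For Glul and Slc1a2 the control livers of both series differed by 0.13 and 0.01, and within the second series the LPfl/+ livers were at -0.47 and -0.31 against the control. Lgr5 stood at -0.89 within that series, whose control liver was 0.79 above the controls of the first series. These within-series values rest on 1 control liver and have no test. Within the first series, LP245/+ against LP+/+ was 0.03 for Glul, 0.13 for Slc1a2, -0.38 for Oat, -0.41 for Lect2 and -0.68 for Rhbg.

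**Figure D3:**
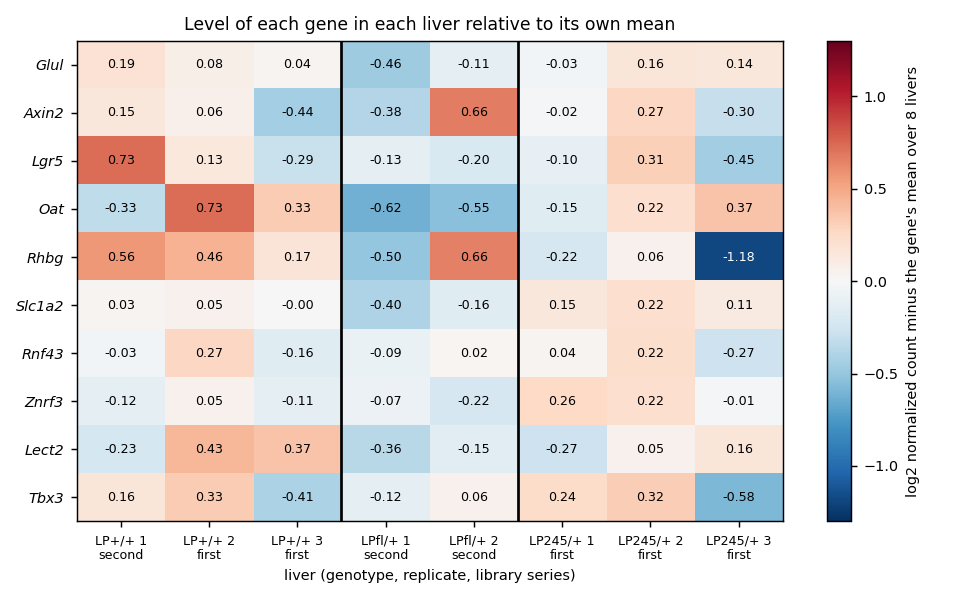
Log2 normalized read count of each gene (y axis) in each liver (x axis, with its library series) minus that gene's mean over the 8 livers. The colour scale runs from blue, below the mean, to red, above it, and black lines part the genotypes; Oat is below its mean in all 3 livers of the second series, and LP+/+ replicate 3, LPfl/+ replicate 1 and LP245/+ replicate 3 each hold several low members.

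Livers of 1 genotype also differed from each other across several members at once. Within its genotype, LP+/+ replicate 3 was lowest for 7 of the 10 members, LPfl/+ replicate 1 for 8 and LP245/+ replicate 3 for 7, while LP+/+ replicate 2 and LP245/+ replicate 2 were lowest for 0. Of 2 LPfl/+ livers 1 is always the lower, and these counts have no share of all genes beside them. Axin2, Rhbg, Slc1a2, Rnf43 and Tbx3 were lowest in all 3 of those livers, 5 of 10 members beside 6.72% of all genes tested. These livers were picked out after their values were seen, so the share is a description. Glul, Oat and Lect2 were not among these 5 genes.

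Sequence composition and mitochondrial reads also varied between these livers. The longest transcripts of Axin2, Rhbg, Rnf43 and Tbx3 have the highest GC contents of the members, from 54.2 to 56.9%, and that of Slc1a2 is 45.3%. The median deviation of the genes highest in GC minus that of the genes lowest in GC, 20% of genes each, was -0.25 on the log2 scale in LP245/+ replicate 3 and -0.08 in LPfl/+ replicate 1, but 0.10 in LP+/+ replicate 3. Mitochondrial genes took 9.7% of counts in LP245/+ replicate 3 and in LPfl/+ replicate 1, and 5.88% in LP+/+ replicate 3, the highest and the lowest shares of the 8. Between the genotypes, the mitochondrial share was 5.88 to 6.9% in LP+/+, 8.0 and 9.7% in LPfl/+ and 7.57 to 9.7% in LP245/+ livers, so that every LP+/+ liver lay below all others. The GC difference was 0.06 to 0.14 in LP+/+ livers, -0.08 and -0.03 in LPfl/+ livers and -0.25 to 0.07 in LP245/+ livers. Both LPfl/+ livers thus lay below all LP+/+ livers. Glul, Oat and Slc1a2, the members lower in both LPfl/+ livers, have GC contents of 49.2, 47.3 and 45.3%. These lie between the bounds of the GC-poor and GC-rich genes, 43.4 and 54.8%. The part of either measure in the members' values was not tested.

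The genes most like the members were found by correlating each other gene, over the 8 livers, with the mean of the members' standardized log2 levels. Of 16486 genes, the first 5 were Dnajb14 (Pearson r = 0.97, Spearman rho = 0.98), Tbl2 (0.95, 0.86), Zfp36l1 (0.95, 0.93), Pamr1 (0.95, 0.93) and Thsd4 (0.95, 0.98). They are the extremes of many genes over few livers, which fall into separate library series and differ in depth, and the values are a description.

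Other pericentral genes gave a like picture in LPfl/+ livers. Of 18 tested, 3 were lower at an unadjusted p under 0.05 and 0 higher, 0 passed at an adjusted p of at most 0.05 (edgeR), and the median log2 fold change was -0.25. Gstm3, a glutathione S-transferase, was at -0.87 (edgeR adjusted p = 0.697) and Ahr, the aryl hydrocarbon receptor, at -0.72 (edgeR adjusted p = 0.7). Ahr followed the library series in the same manner as Oat, with at most 1347 normalized counts in the second series and at least 1733 in the first. Within the second series, LPfl/+ against 1 control liver was at -0.18 for Ahr and -0.63 for Gstm3. Cyp2e1 and Cyp1a2, cytochromes P450 of the pericentral zone, were at -0.28 and 0.01. In LP245/+ against LP+/+ livers 1 of the 18 was lower at that p, Gstm3, at -0.67 (edgeR adjusted p = 0.795), and the median was -0.07.

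The periportal genes, which mark the other end of the lobule, also had a median below 0 in LPfl/+ livers, of about the size of the members'. Of 14 tested, 2 were lower at an unadjusted p under 0.05, 0 passed the adjusted test, and the median was -0.26. Gls2, the liver glutaminase, was at -0.47 and Ass1, argininosuccinate synthase of the urea cycle, at -0.43 (edgeR adjusted p = 0.704 and 0.709), while Cyp2f2 was at 0.01. The median of the 6 hepatocyte markers was -0.19 in the same comparison. Aldh1b1, a mitochondrial aldehyde dehydrogenase, was at -0.39 in LPfl/+ and -0.55 in LP245/+ (edgeR adjusted p = 0.757 and 0.795).

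Few genes of the Wnt pathway itself stood apart. Of the 12 other Wnt target and feedback genes tested of 15 listed, 0 had an unadjusted p under 0.05 in LPfl/+ or in LP245/+ against LP+/+. Their medians were -0.23 and -0.19, beside -0.25 and -0.01 for the members, so in LPfl/+ the medians were close. Of 23 ligands, R-spondins and receptors tested of 31 listed, 0 did so, with medians of -0.01 and -0.01. The same held for the 24 genes of the β-catenin degradation complex and its nuclear effectors, with medians of -0.06 and 0.06, and 0 genes of these lists had an adjusted p of at most 0.05 by edgeR. Among the other targets, Tnfrsf19, a receptor of the tumour necrosis factor family, was at 0.29 in LPfl/+ and 0.37 in LP245/+, and Ccnd1, cyclin D1, at -0.43 and 0.23 (edgeR adjusted p from 0.803 to 0.919). Myc, a growth-promoting transcription factor, had normalized read counts of 68.6, 28.8 and 34.8 in the LP+/+ livers, 32.4 and 187 in the LPfl/+ livers and 23.8, 40.4 and 22.4 in the LP245/+ livers. Its high value was that of LPfl/+ replicate 2 alone, and the log2 fold change was -1.92 in LP245/+ against LPfl/+ (edgeR adjusted p = 0.465). Ctnnb1, which encodes β-catenin, was at -0.08 (SE 0.11) in LPfl/+ and -0.07 (SE 0.0986) in LP245/+ livers. Wnt2, a ligand of the central vein endothelium, was at -0.05 and 0.04, and Rspo3 at -0.13 and 0.08. Wnt9b, the other ligand of that endothelium, had normalized read counts of 24.2, 38.4 and 47.1 in the LP+/+ livers, 27.4 and 28.3 in the LPfl/+ livers and 58.9, 51.5 and 51.9 in the LP245/+ livers. The LP245/+ livers were above all others, and all livers of the second series were below all of the first. Its log2 fold change was 0.58 in LP245/+ (edgeR adjusted p = 0.831) and -0.38 in LPfl/+ (edgeR adjusted p = 0.823). Against only the controls of the same library series it was 0.34 in LP245/+, and 0.20 in LPfl/+ with 1 control liver. Between the control livers, the second series was at -0.82 against the first. Fzd6, a Wnt receptor, was 1 of the genes that differed between LP245/+ and LPfl/+ at an unadjusted p under 0.05, at -1.01 (edgeR adjusted p = 0.376), and Rspo1, an R-spondin with at most 23 counts, was at -1.08 in LP245/+ against LP+/+ livers (edgeR adjusted p = 0.831) and -0.63 against LPfl/+. In the complex, Dvl3, a dishevelled protein that relays the Wnt signal, was at -0.61 in LPfl/+ (edgeR adjusted p = 0.727), Pygo2, a coactivator of β-catenin, at -0.28 (edgeR adjusted p = 0.754) and Amer1, a partner of APC, at 0.31 (edgeR adjusted p = 0.755).

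**Figure D4:**
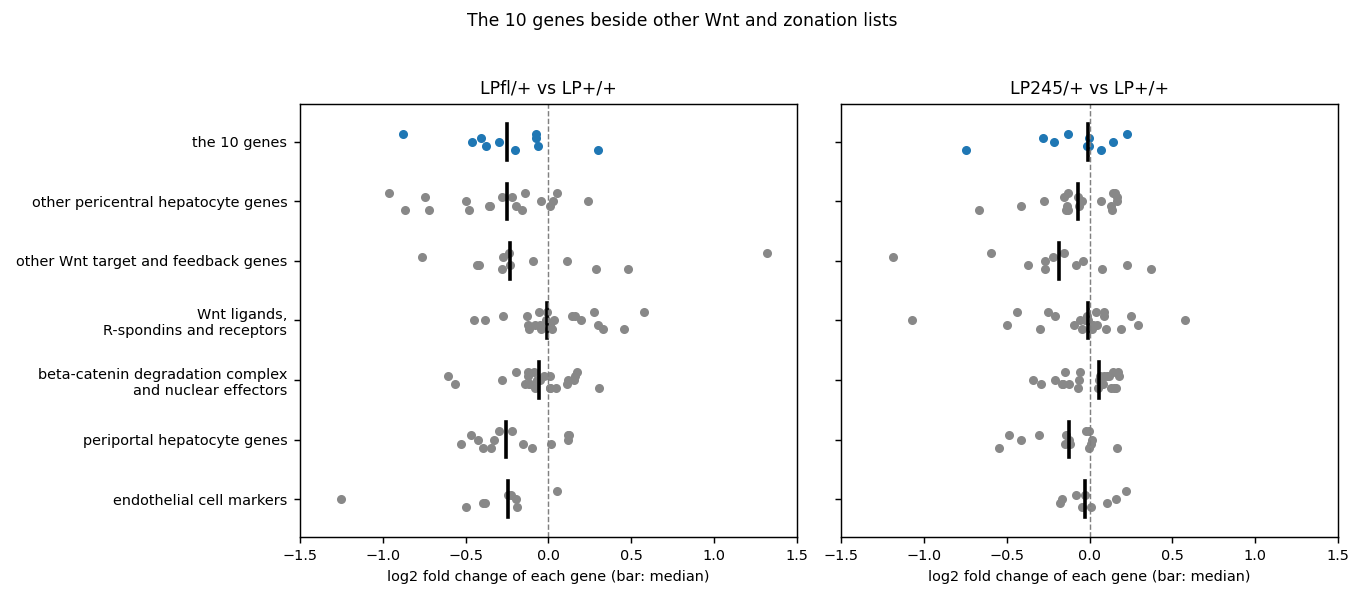
Log2 fold change (x axis) of each tested gene in the 10 members and 6 other lists (y axis) for LPfl/+ and LP245/+ against LP+/+ livers, with the median of each list as a black bar. In LPfl/+ the medians of the members, the other pericentral, the periportal and the endothelial genes lie between -0.26 and -0.24, and that of the other Wnt targets is -0.23. In LP245/+ the members' median is -0.01.

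Markers of other liver cells were read beside these values because endothelial cells supply the Wnt signal. The summed normalized counts of the 9 endothelial markers were 10796 to 13940 in LP+/+, 8710 to 11415 in LPfl/+ and 11936 to 13178 in LP245/+ livers, and all 9 were detected in every liver. In LPfl/+ 3 of the 9 had an unadjusted p under 0.05, all lower: Cdh5 (-0.39), Cdh13 (-0.50) and Thbd, thrombomodulin (-1.25; edgeR adjusted p = 0.697). Thbd and Cdh13 were lower in all livers of the second series than in all of the first. Within the second series, LPfl/+ against 1 control liver was at -0.60 for Thbd and -0.24 for Cdh13. The summed Kupffer cell and macrophage markers were 7696 to 9205 in LP+/+, 7842 to 10888 in LPfl/+ and 6597 to 7776 in LP245/+ livers, with 0 of 6 at that p against LP+/+ in either genotype. In LP245/+ against LPfl/+ livers all 9 endothelial markers were nominally higher (median 0.22), with Cdh13 (0.45) and Thbd (1.08) at an unadjusted p under 0.05, and all 6 macrophage markers nominally lower (median -0.35), with Cd68 (-0.38) and Vsig4 (-0.33) at that p, while 0 of either list had an adjusted p of at most 0.05 by edgeR. The sums were 11545 to 14552 for 6 stellate and 566 to 1022 for 5 cholangiocyte markers over all livers, and 35 to 59 for 5 lymphocyte markers, of which Cd3d was below 3 counts in at least 1 liver. The markers with the smallest p in each list, against LP+/+ in LPfl/+ and then LP245/+, were Clec4f (0.17, -0.16), Cd68 (0.20, -0.18) and Vsig4 (0.11, -0.22) of the macrophages, Des (0.24, 0.11), Reln (-0.32, 0.05) and Col1a1 (-0.87, -0.19) of the stellate cells, and Krt7 (-0.32, 0.08), Epcam (-0.22, 0.10) and Spp1 (0.15, -0.17) of the cholangiocytes, as log2 fold changes. Those given for the lymphocytes are Cd79a (-0.45, 0.15) and Nkg7 (0.07, 0.15). Those of the hepatocytes were Alb (-0.30, -0.18), Hnf4a (-0.24, 0.15) and Fgb (0.05, -0.17). Of these markers, 0 had an unadjusted p under 0.05 by edgeR against LP+/+ in either genotype. The part of these cells in the members' levels was not tested.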

How the data were processed

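Total RNA from 8 livers had been made into stranded libraries and read as paired ends of 76 bases. Per the labels and the study's methods, the authors aligned reads with STAR to GRCm38 and deposited raw read counts per gene on a GENCODE annotation, whose release, counting tool and strand setting are not given in the sources used here, so overlapping and antisense genes are uncertain. Symbols and positions came from GENCODE M21, which holds 49326 of the 49585 identifiers. Counts were tested with edgeR 4.0.16 (filterByExpr, TMM, quasi-likelihood, 3 genotypes in 1 fit, no covariate) in R 4.3.3, with Benjamini-Hochberg adjustment over 16496 genes, at an adjusted p of at most 0.05 and a log2 fold change of at least 1. Normalized read counts are counts divided by the median-of-ratios size factors of DESeq2, and TMM was used only inside the edgeR fit. The fit was checked on simulated data for LP245/+ against LP+/+ only, with changes larger than those of the members and no effect of the library series. That check does not cover differences of the members' size or the comparisons with LPfl/+. Over all genes tested, replicate numbers did not pair the livers (correlations of -0.078 to 0.0288), and no 2 libraries were alike within sampling noise. The members' mean standardized levels were nearer by replicate number in LP+/+ and LP245/+: 0.24 and 0.11 in replicate 1, 0.76 and 0.76 in replicate 2, -0.23 and -0.46 in replicate 3. In LPfl/+ they were -1.02 and -0.16 in replicates 1 and 2. Intervals and floors cover counting and sample spread only. Alternatives were DESeq2 1.42.0, other scalings and filters, the library series as a covariate, a replicate block and leaving out each liver. The members and lists were chosen with earlier results of these data known; the text names all members, 7 genes of interest and up to 3 genes of each list with the smallest p. A few genes under this rule are not reported here by name.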

Additional observations from a re-analysis of the deposited data

Results flagged for a closer look

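For 2 of the 10 members, beside 6.84% of all genes tested, every LPfl/+ liver lay on one side of the LP+/+ mean and every LP245/+ liver on the other. For Znrf3 this was slight: LPfl/+ replicate 1, at 321, lay just under the LP+/+ mean of 325 and above LP+/+ replicates 1 and 3. Its LPfl/+ livers overlapped LP+/+ (-0.08, edgeR adjusted p = 0.92). Slc1a2 differed between LP245/+ and LPfl/+ by 0.44 on the log2 scale (edgeR adjusted p = 0.376) and Znrf3 by 0.30 (edgeR adjusted p = 0.579). Neither difference passed the adjusted threshold, both effects share the LP+/+ livers, and the genotypes come from different library series. Groups of 2 or 3 livers were too small to test whether single livers stand apart, and the livers singled out above are descriptions.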

How the results depend on the processing

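Of 400 values of single members under the alternatives, 366 kept their direction and their side of the threshold, 33 changed sign and 1 passed it. The limits are 2 LPfl/+ livers, 1 control in their library series, no series with both altered genotypes and no control liver with Cre. Under the alternatives, the count of members that passed stayed at 0 except without LP+/+ replicate 1, where Oat passed in LPfl/+ against LP+/+ (-1.12, edgeR adjusted p = 0.0451; 59 genes passed in all), so that leaving out a liver gave 0 to 1. Counts at an unadjusted p under 0.05 moved more. Brackets give all genes at that p in either direction in the same fit. In LP245/+ against LP+/+ the count was 1 in place of 0 in several settings, and 0 to 1 on leaving out a liver. The member was Rhbg with no filter on low counts (1457 of 30240 genes) and with only the 2 genotypes compared (875 of 15514). It was also Rhbg with the replicate block (884 of 16496) and without LP245/+ replicate 2 (1131 of 16399). Lect2 was the member with the series as a covariate (1097 of 16496) and without LP+/+ replicate 1 (1093 of 16311). Without LP245/+ replicate 3 it was Znrf3 (1269 of 16363). In LPfl/+ against LP+/+ the count was 1 with library totals only (1081 of 16496), 2 with the series as a covariate (886 of 16496) and 6 with the replicate block (989 of 16496). It was 2 to 3 on leaving out an LP+/+ liver (704 to 1903 genes). In LP245/+ against LPfl/+ it was 2 with library totals only (1388 of 16496), with only the 2 genotypes compared (1526 of 16074) or with the series as a covariate (870 of 16496). There it was 4 with the replicate block (1196 of 16496), and 1 to 3 on leaving out an LP245/+ liver (1056 to 1769 genes). The median of the members in LPfl/+ against LP+/+ was -0.41 to -0.11 on leaving out a liver and -0.34 with the replicate block. No call of a member changed with the replicate block. In LP245/+ against LP+/+ that block called 0 of all genes, where the main fit called 1, Cdkn1a. The count was also 0 without LP+/+ replicate 3 and without LP245/+ replicate 2. Sign changes were not limited to values near 0, and their cause was not tested. In LP245/+ against LP+/+ the series covariate gave 0.0453 for Glul, 0.0313 for Lgr5 and 0.0536 for Tbx3, and leaving out a liver gave -0.039 to 0.0492 for Glul, -0.0989 to 0.191 for Axin2, -0.506 to 0.0319 for Lgr5, -0.369 to 0.124 for Oat, -0.138 to 0.105 for Rnf43 and -0.196 to 0.223 for Tbx3. In LPfl/+ against LP+/+ Rnf43 was 0.00333 with library totals only and 0.00895 with the series covariate, and leaving out a liver gave -0.328 to 0.715 for Axin2, -0.908 to 0.249 for Rhbg, -0.159 to 0.0572 for Rnf43 and -0.275 to 0.0643 for Tbx3. In LP245/+ against LPfl/+ Rnf43 was -0.0233 with library totals only, the series covariate gave 0.0902 for Axin2, -0.13 for Oat, -0.0576 for Rnf43 and -0.38 for Lect2, and leaving out a liver gave -0.656 to 0.387 for Axin2, -0.0998 to 0.292 for Lgr5, -1.01 to 0.147 for Rhbg, -0.0782 to 0.171 for Rnf43 and -0.0835 to 0.313 for Tbx3.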
